A study of Mus musculus with 11 samples.

Results

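The genes described here encode the subunits of oxidative phosphorylation. They number 98 of the 55536 genes in the count files, and were chosen by symbol alone: protein-coding genes named mt-Nd, mt-Co, mt-Atp or mt-Cyt, Nduf (a, b, c, s or v series), Uqcr, Cox4 to Cox8 or Atp5, and the succinate dehydrogenase genes Sdha, Sdhb, Sdhc and Sdhd. Mitochondrial DNA encodes 13 of them and the nuclear genome 85. The counts come from epidermal cells of dorsal skin, taken from CD4Cre R26-tdT male mice (C57Bl6/N). In these mice, cells in which Cre was active under the Cd4 promoter, and the descendants of those cells, carry the red reporter tdT. Cells were freed with thermolysin, sorted by FACS as CD49f+CD34+ and divided by Sca-1 and tdT into Sca-1neg tdT+ (3 libraries), Sca-1neg tdTneg (3), Sca-1+ tdT+ (3) and Sca-1+ tdTneg (2). All groups share the genotype and the CD49f+CD34+ gate, each library pools 2 mice, and mice were 29 weeks old for replicate 1 and 32 weeks old for the others.

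Oxidative phosphorylation takes electrons from NADH and succinate through complexes I to IV of the inner mitochondrial membrane, and complex V uses the resulting proton gradient to make ATP. Every complex but complex II mixes subunits made inside the mitochondrion with subunits made from nuclear genes and imported. The mitochondrial mRNAs are cut from long transcripts of the whole mitochondrial genome, whereas each nuclear gene has its own promoter. Quiescent hair follicle stem cells, which the CD49f+CD34+ gate is used to collect, are known to rely on glycolysis and to make lactate.

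Total gene counts ran from 17409131 to 46542177 per library. CD34 marks bulge stem cells of the hair follicle. In what follows levels are given as CPM, the count of a gene per 1000000 counts of a library. The 8 bulge markers examined summed to 5366 to 10795 CPM across the 6 Sca-1neg libraries, 2270 to 3682 CPM in Sca-1+ tdTneg and 722 to 1394 CPM in Sca-1+ tdT+. Cd34 itself stood at 22.4 to 35.7 CPM in Sca-1+ tdT+, against the CD34+ label of that gate, and at 320 to 1130 CPM in the other 8 libraries. Ly6a, which encodes Sca-1, ran from 2.46 to 59.2 CPM across Sca-1neg libraries and from 153 to 294 CPM across Sca-1+ libraries. An entry of the count files is read as the tdT tracer. It stood at 133 to 307 CPM in 5 of the 6 tdT+ libraries and at 2.54 to 4.89 CPM in the tdTneg libraries, but at 2.05 CPM in the remaining tdT+ library, the library labelled Sca-1neg tdT+ replicate 2. Liver transcripts were present in 3 libraries, namely Sca-1neg tdT+ replicate 1, that same replicate 2, and Sca-1neg tdTneg replicate 2, where 20 hepatocyte markers summed to 15494 to 32681 CPM against at most 128 CPM in the other 8. The 10 endothelial markers summed to 2205 and 2341 CPM for Sca-1+ tdTneg and to at most 584 CPM elsewhere. The 10 T cell markers summed to 289 to 860 CPM for Sca-1+ tdT+ and to at most 79.8 CPM elsewhere.

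Of the 98 genes, 86 had enough counts to be tested: 7 of the 13 mitochondrial and 79 of the 85 nuclear genes. The other 6 mitochondrial genes, mt-Co2, mt-Co3, mt-Atp6, mt-Atp8, mt-Nd3 and mt-Nd4l, are listed at 0 in all 11 libraries, so neither mitochondrial subunit of complex V and only 1 of the 3 of complex IV could be measured. Of these 6, 5 have a near-identical copy in the nuclear annotation, a block of 7 pseudogenes on chromosome 1 (GENCODE M21 on GRCm38, chr1:24611535-24616197). The copies cover 681 of the 684 bases of mt-Co2, 783 of 784 of mt-Co3, 678 of 681 of mt-Atp6, 345 of 348 of mt-Nd3 and 294 of 297 of mt-Nd4l, at an identity of 99.71% for mt-Nd3 and 100% for the other 4. The sixth, mt-Atp8 (chrM:7766-7969), starts in the 230 bases between mt-Co2 and mt-Atp6 and runs into mt-Atp6, which starts at 7927. The overlap is shorter than the 50 bases required of a copy. The 2 matching pseudogenes on chromosome 1 lie 233 bases apart. Of the measured genes, mt-Nd4 is copied over bases 1 to 876 of 1378 and mt-Co1 over bases 1063 to 1545 of 1545, while mt-Nd1, mt-Nd2, mt-Nd5, mt-Nd6 and mt-Cytb have no copy of at least 98% identity over 50 bases. Treatment of reads that map to more than 1 place was not given in the sources used here.

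The first 60 bases of 2 mitochondrial mRNAs and of their chromosome 1 copies show how close these sequences are. They are printed 5′ to 3′ on the coding strand from GENCODE M21 transcripts, with capitals where the members of a pair differ. The mt-Co2 gene lies at chrM:7013-7696 (+), its copy Gm28661 at chr1:24614885-24615565 (-), mt-Nd3 at chrM:9459-9806 (+) and its copy Gm28438 at chr1:24612775-24613119 (-).
mt-Co2: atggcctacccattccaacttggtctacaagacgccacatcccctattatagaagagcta
Gm28661: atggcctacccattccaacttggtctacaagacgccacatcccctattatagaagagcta
mt-Nd3: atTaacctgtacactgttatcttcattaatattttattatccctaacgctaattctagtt
Gm28438: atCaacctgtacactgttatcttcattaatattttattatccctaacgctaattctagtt
The mt-Co2 pair had 0 differences in this stretch and the mt-Nd3 pair had 1. Gm28438 was counted between 19 and 129 times per library, and the other 6 pseudogenes of the block between 0 and 16 times.

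**Figure D1:**
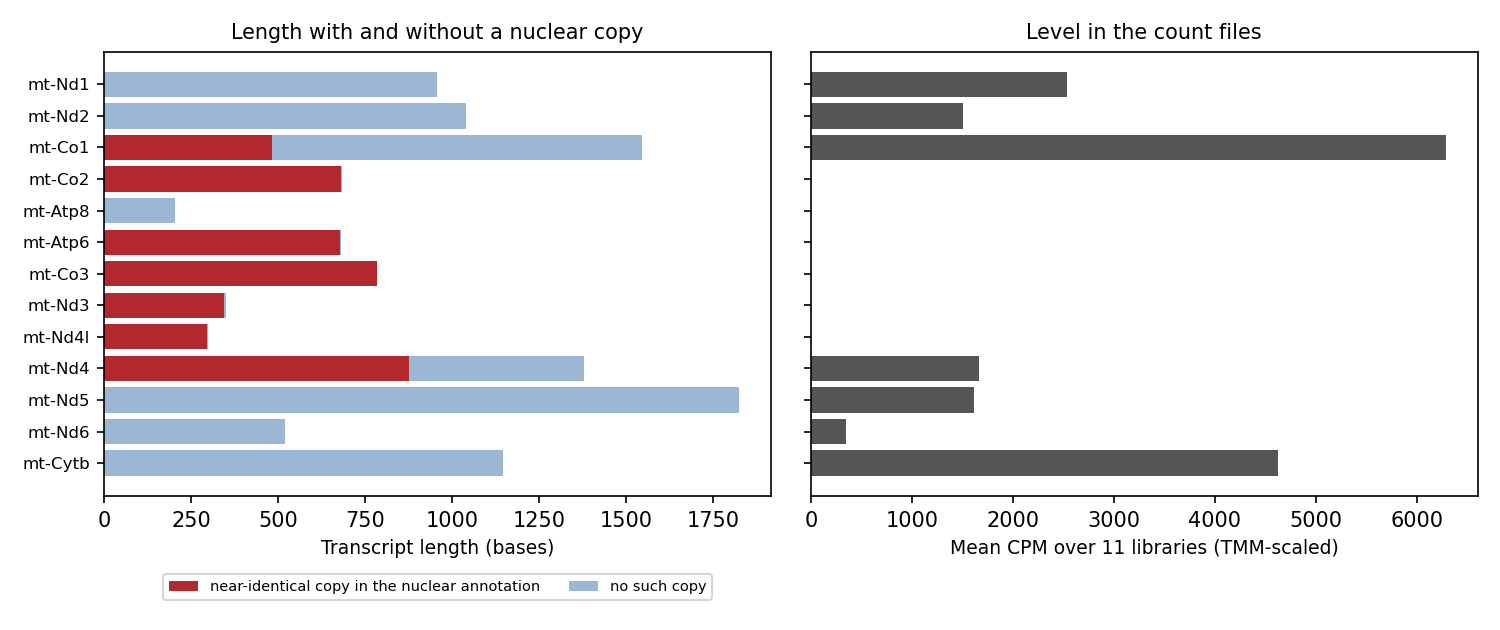
Left, transcript length in bases of the 13 mitochondrial genes in genome order, split into sequence with a near-identical copy in the nuclear annotation (red) and without (blue). Right, mean level over 11 libraries in CPM. The 6 genes at 0 have no bar on the right, and 5 of them are red over almost their whole length. The sixth, mt-Atp8, has no annotated copy.

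Levels of the 7 measured mitochondrial mRNAs were far above those of the nuclear genes. Per kilobase of exon, they had a median of 1450 CPM, from 677 CPM for mt-Nd6 to 4070 CPM for mt-Co1. On that scale the 79 tested nuclear genes had a median of 30.4 CPM and ran from 0.74 CPM for Cox7a1 to 224 CPM for Atp5a1. Divided by the bases of the longest transcript that have no near-identical copy, the medians were 2653 CPM for the mitochondrial and 63.6 CPM for the nuclear genes. Near-identical pseudogenes or overlapping genes touch the nuclear list too: 31 of the 79 have such a stretch, and the levels of single genes are uncertain there. The 15 nuclear genes copied over at least 30% of their length had a lower median than the 48 with no copy per kilobase of exon (18.6 against 38.0 CPM) and a higher one per kilobase of uncopied transcript (96.3 against 63.1 CPM), so that their order turns on the divisor.

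The first question is how much of each library these genes took. In Sca-1neg cells the 7 mitochondrial mRNAs made up 1.64%, 1.94% and 1.82% of gene counts for tdT+ replicates 1 to 3 and 2.48%, 1.97% and 3.31% for tdTneg. For Sca-1+ cells these shares were 1.27%, 1.29% and 1.32% with tdT+ and 1.86% and 1.57% with tdTneg. Values are given in replicate order throughout, and replicate 2 of Sca-1neg tdT+ is always the library whose tracer goes against its label. All 3 Sca-1+ tdT+ libraries lay below each of the other 8. Nuclear subunit genes together made up 0.575%, 0.535% and 0.580% of Sca-1neg tdT+ counts and 0.555%, 0.629% and 0.700% of Sca-1neg tdTneg counts. Among Sca-1+ cells they made up 0.659%, 0.861% and 0.609% with tdT+ and 0.559% and 0.551% with tdTneg. Here Sca-1+ tdT+ lay above Sca-1+ tdTneg and Sca-1neg tdT+, and overlapped Sca-1neg tdTneg.

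Setting one sum over the other within a library removes the library scaling. For Sca-1neg cells, mitochondrial counts were 2.85, 3.62 and 3.13 times the nuclear counts with tdT+ and 4.47, 3.14 and 4.73 times with tdTneg. For Sca-1+ cells they were 1.93, 1.501 and 2.17 times with tdT+ and 3.32 and 2.84 times with tdTneg. The 3 Sca-1+ tdT+ libraries held the 3 lowest ratios of the 11. On the log2 scale the mean ratio was 0.88 ± 0.27 (SD, n = 3) in Sca-1+ tdT+ and 1.62 ± 0.16 (SD, n = 2) in Sca-1+ tdTneg, a difference of -0.74 and a ratio 1.67 times lower. In Sca-1neg tdT+ it was 1.67 ± 0.17 (SD, n = 3), so that Sca-1+ tdT+ was lower by a difference of -0.79. Neither pair of groups overlapped. Sca-1neg tdTneg, at 2.02 ± 0.32 (SD, n = 3), overlapped Sca-1neg tdT+ (difference -0.35) and Sca-1+ tdTneg (difference -0.40). Without the 3 libraries that held liver transcripts, the difference between Sca-1+ tdT+ and Sca-1neg tdT+ was -0.76, but a single Sca-1neg tdT+ library then remained. In bulk RNA, fewer cells of a type and less RNA per cell cannot be told apart, and this applies to every level below.

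**Figure D2:**
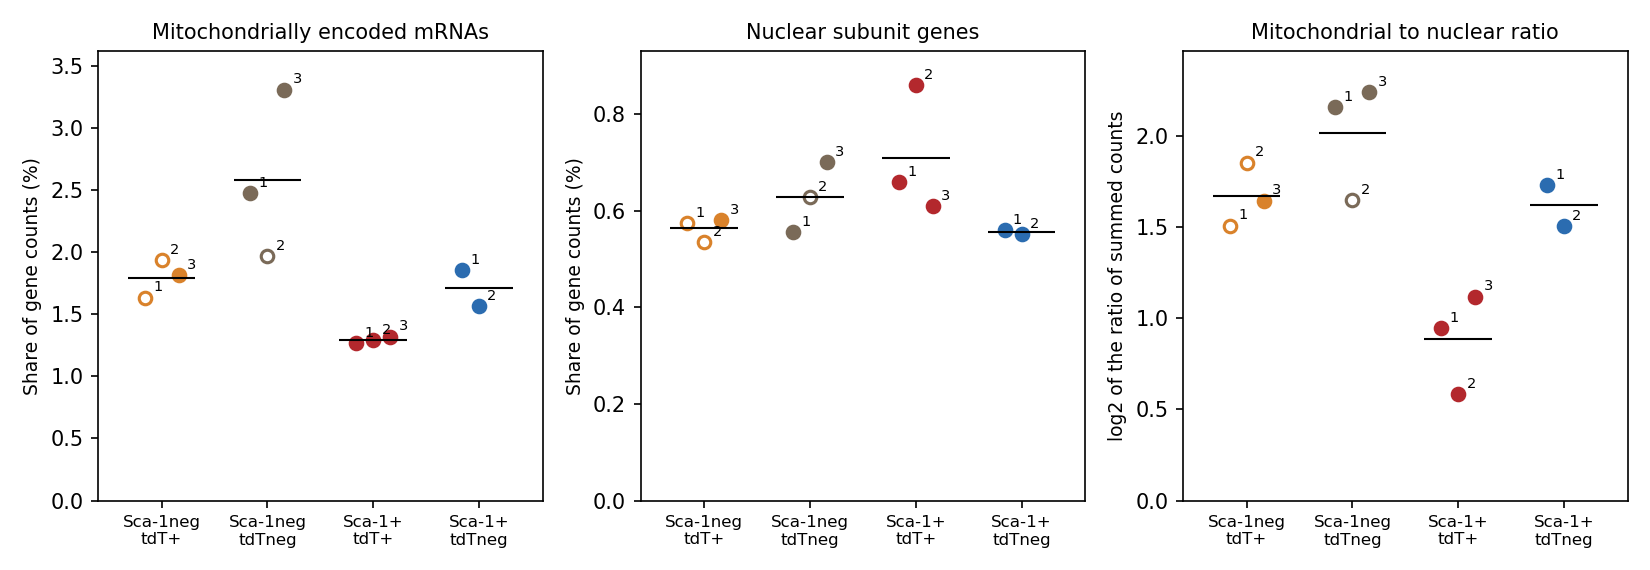
Share of gene counts (%) of the mitochondrially encoded mRNAs (left) and of the nuclear subunit genes (middle), and the log2 ratio of the first to the second (right), in each of the 11 libraries. Points carry the replicate number, open points are the 3 libraries with liver transcripts, and lines are group means. The Sca-1+ tdT+ libraries lie between 0.59 and 1.12 in the right panel, below the other 8.

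Among the mitochondrial mRNAs, mt-Co1, mt-Cytb and mt-Nd1 took most of the counts. The mt-Co1 gene encodes the catalytic core of complex IV and mt-Cytb the only mitochondrial subunit of complex III. For mt-Cytb the Sca-1neg levels were 4596, 4490 and 4615 CPM with tdT+ and 6240, 5703 and 8755 CPM with tdTneg. Its Sca-1+ levels were 2644, 3058 and 3086 CPM with tdT+ and 3869 and 3811 CPM with tdTneg. No 2 of the 4 groups overlapped, with Sca-1neg tdTneg highest and Sca-1+ tdT+ lowest. For mt-Nd4, a core subunit of complex I, the Sca-1neg levels were 1644, 1591 and 1692 CPM with tdT+ and 2220, 2162 and 2938 CPM with tdTneg. Its Sca-1+ levels were 973, 1013 and 1167 CPM with tdT+ and 1487 and 1442 CPM with tdTneg, so that the groups stood in the same order without overlap.

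Tests were made with edgeR's quasi-likelihood method over 20307 genes, and a gene is said to have risen or fallen where its Benjamini-Hochberg adjusted p was at most 0.05. Between Sca-1 fractions of tdTneg cells, 5.74% of all genes passed (3.68% higher and 2.06% lower in Sca-1+), and 4 of the 86 subunit genes did. Both mt-Cytb and mt-Nd4 fell in Sca-1+ tdTneg against Sca-1neg tdTneg, with log2 fold changes of -0.85 ± 0.21 (SE, adjusted p = 0.0395) and -0.74 ± 0.19 (SE, adjusted p = 0.0423). Between Sca-1 fractions of tdT+ cells, where 12.7% of all genes passed (5.94% higher and 6.73% lower in Sca-1+) and 6 of the 86 subunit genes did, mt-Nd4 fell in Sca-1+ tdT+ by -0.64 ± 0.16 (SE, adjusted p = 0.0263) and mt-Cytb by -0.64 ± 0.18 (SE, adjusted p = 0.0429). These 4 calls sat near the threshold. In the tdTneg comparison, mt-Nd4 passed under 6 of 21 alternative settings and mt-Cytb under 8. In the tdT+ comparison they passed under 11 and 8. Both were lost there without Sca-1neg tdT+ replicate 2, whose tracer goes against its label, and without replicate 1 or 3 of that group.

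Over all genes, DESeq2 called 2950 between Sca-1 fractions of tdTneg cells and 4652 of tdT+ cells, against 1166 and 2572 by edgeR. The remaining mitochondrial mRNAs did not pass in any comparison by edgeR. DESeq2 called 3 of them lower in Sca-1+ cells: mt-Nd1 and mt-Nd2 in both Sca-1 comparisons (adjusted p = 0.00356 and 0.0255 among tdTneg, 0.0304 and 0.00484 among tdT+ cells) and mt-Co1 among tdT+ cells (adjusted p = 0.0225). By edgeR's quasi-likelihood method the values were as follows. The complex I subunits mt-Nd1 and mt-Nd2 had log2 fold changes of -0.98 (adjusted p = 0.0572) and -0.82 (adjusted p = 0.106) in Sca-1+ tdTneg against Sca-1neg tdTneg, and of -0.57 (adjusted p = 0.132) and -0.74 (adjusted p = 0.0652) in Sca-1+ tdT+ against Sca-1neg tdT+. For mt-Co1 they were -0.42 (adjusted p = 0.297) and -0.43 (adjusted p = 0.148), and for mt-Nd5, another core subunit of complex I, they were -0.21 and -0.23. The exception in sign was the count of mt-Nd6, whose mRNA is the only one made from the other strand of mitochondrial DNA, at 0.02 and 0.13. Over the 7 genes, the median log2 fold change was -0.74 in the tdTneg comparison and -0.57 in the tdT+ comparison, beside -0.13 and -0.07 over all genes tested.

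The mix of counts over the 7 mitochondrial genes also differed between Sca-1 fractions. Of the counts of the 7 mRNAs in Sca-1neg cells, mt-Nd6 made up 1.54%, 1.97% and 1.81% with tdT+ and 1.57%, 0.963% and 1.55% with tdTneg. Its share among Sca-1+ cells was 2.76%, 2.46% and 3.03% with tdT+ and 2.21% and 2.22% with tdTneg. All 5 Sca-1+ libraries lay above all 6 Sca-1neg libraries, a description that was not tested. The share of mt-Nd5 ran from 6.75% to 9.67% in Sca-1neg and from 9.49% to 11.4% in Sca-1+, so the ranges met. Its gene (chrM:11742-13565) runs into that of mt-Nd6 (chrM:13552-14070), which lies on the other strand. Whether the counting used strand was not given in the sources used here. Reads of a gene and reads from the opposite strand may therefore not have been separated. Counts listed for mt-Nd6 may hold reads of transcripts from the other strand, and may not measure its mRNA alone.

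**Figure D3:**
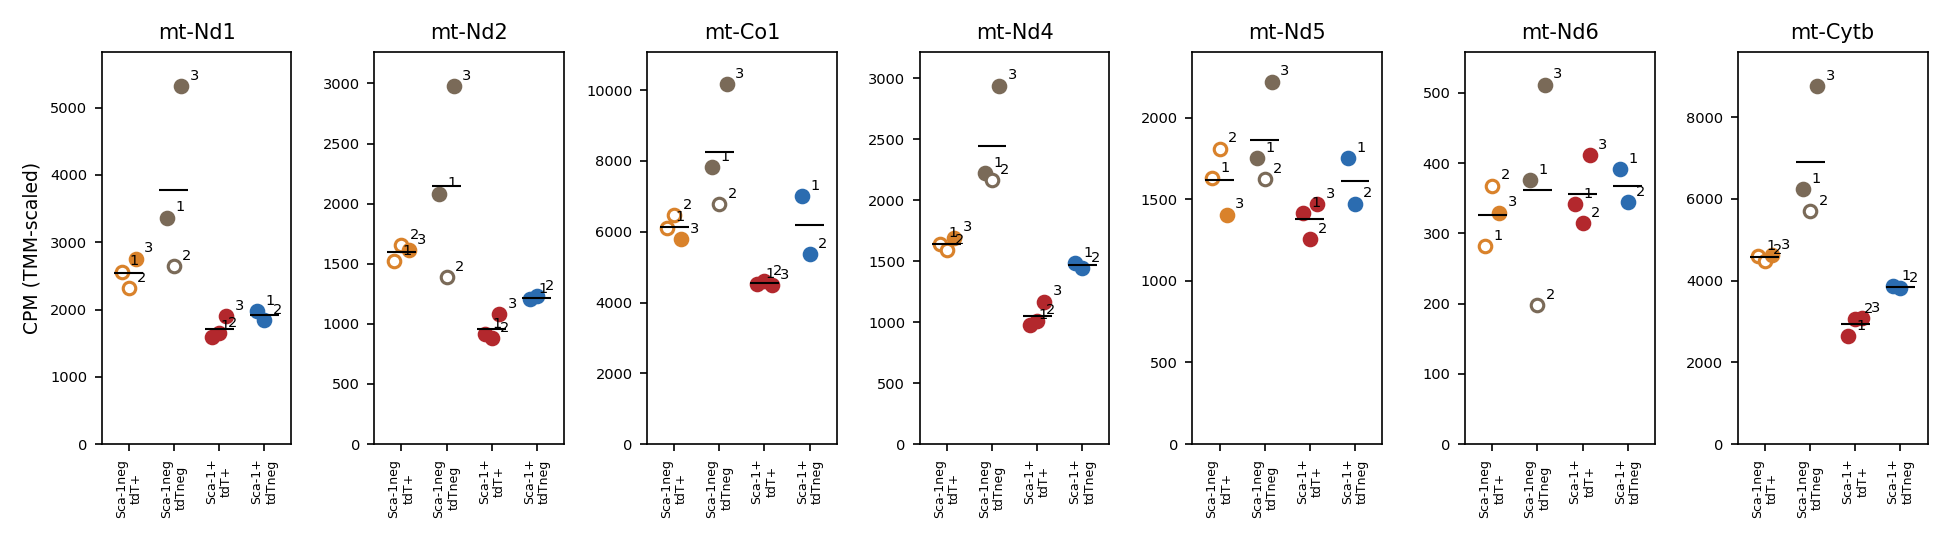
Level of the 7 measured mitochondrial mRNAs in CPM (TMM-scaled) in each library, by group. Points carry the replicate number, open points are the 3 libraries with liver transcripts, and lines are group means. In the mt-Nd4 and mt-Cytb panels Sca-1neg tdTneg is highest and Sca-1+ tdT+ lowest, and in the mt-Nd6 panel the groups overlap.

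The tdT comparisons gave no call among the subunit genes. In Sca-1neg cells, where 0.064% of all genes passed, 0 of 86 subunit genes passed, and 5 had an unadjusted p under 0.05, as did 8.33% of all genes. Of these 5, 4 were mitochondrial and lower in tdT+, and the other was the nuclear gene Ndufa4l2 at 1.07 ± 0.42 (SE, adjusted p = 0.566). DESeq2 called 400 of all genes there and 1 subunit gene, mt-Nd4 (-0.48, adjusted p = 0.0375). All 7 mitochondrial mRNAs had a negative log2 fold change, with a median of -0.43. The nuclear gene with the next lowest p was Ndufb3, an accessory subunit of complex I, at -0.46 (adjusted p = 0.643). By CPM, 3 of the 7 mitochondrial mRNAs and 2 of 79 nuclear genes had every tdT+ library below every tdTneg library, as did 10.9% of all genes. The reverse held for 0 of the 86 and for 5.07% of all genes. With the library whose tracer goes against its label (labelled Sca-1neg tdT+ replicate 2) left out, 2 subunit genes had an unadjusted p under 0.05 and the mitochondrial median was -0.47. Leaving out Sca-1neg tdTneg replicate 3, the highest library for the mitochondrial share, also gave 2, with a median of -0.24. Leaving out Sca-1neg tdTneg replicate 2 gave 6, with a median of -0.65.

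In Sca-1+ cells, where 2.74% of all genes passed, 0 of 86 subunit genes passed and 25 had an unadjusted p under 0.05, as did 14.5% of all genes. DESeq2 called 1470 of all genes there and 3 subunit genes, namely Ndufv3 and Ndufa7 as higher and mt-Nd4 as lower in tdT+. Of those 25, 24 were nuclear and all of them higher in tdT+. The lowest p values belonged to Ndufv3, an accessory subunit of the NADH-binding module of complex I, at 0.61 ± 0.17 (SE, adjusted p = 0.108), and Ndufa7 at 0.90 ± 0.26 (SE, adjusted p = 0.119). Log2 fold changes were positive for 73 of the 79 nuclear genes, with a median of 0.47 beside 0.04 over all genes tested. By CPM, 53 of the 79 had every tdT+ library above both tdTneg libraries, which held for 15.8% of all genes tested, and 0 lay below. In the same comparison all 7 mitochondrial mRNAs had negative values, with a median of -0.34, and 5 of the 7 had every tdT+ library below both tdTneg libraries, which held for 17.2% of all genes.

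The nuclear shift was smaller without Sca-1+ tdT+ replicate 2. That library was the highest of the 11 libraries for 48 of the 79 nuclear genes, and for 14% of all genes tested. Sca-1+ tdTneg replicates 1 and 2 were the lowest for 27 and 15. Leaving it out took the nuclear median in Sca-1+ cells from 0.47 to 0.23, and 4 subunit genes then had an unadjusted p under 0.05 in place of 25. That count was 5 without Sca-1+ tdTneg replicate 1 and 9 without its replicate 2, where the nuclear medians were 0.43 and 0.45. Sca-1+ tdT+ replicate 2 also had the highest sum of T cell markers, 860 CPM, and the highest share of cytosolic ribosomal protein genes, 2.29% of counts against 1.05% to 1.78% in the other libraries. Sca-1+ tdTneg, the other side of this comparison, had the endothelial sums of 2205 and 2341 CPM and the highest sums of 10 Langerhans cell and macrophage markers, 713 and 1324 CPM against 20.6 to 658 CPM in the other 9 libraries. The part of these transcripts in the nuclear shift was not tested.

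Shorter subunit genes had the larger values. Across the 79 nuclear genes, the log2 fold change in Sca-1+ cells had a Spearman correlation of -0.45 with exon length, beside -0.12 across 15596 protein-coding genes. These points are genes of the same libraries, not replicates. Cytosolic ribosomal proteins, which are short and abundant like many subunit genes, had a median of 0.67 there with 76 of 77 positive. None of the 77 passed, 45 had an unadjusted p under 0.05, and DESeq2 called 14. Between Sca-1 fractions of tdT+ cells 6 of the 77 rose (7.79%, beside 5.94% of all genes). The lowest p values there belonged to Rps12 (0.78, adjusted p = 0.01), Rpl13a (0.93, adjusted p = 0.0106) and Rplp0 (0.98, adjusted p = 0.0117). Mitochondrial ribosomal proteins, part of the ribosomes that translate the mRNAs of the 13 mitochondrial genes, had a median of 0.34 with 73 of 77 positive. Of these 77, 0 passed the threshold, 11 had an unadjusted p under 0.05, and 1 was called by DESeq2.

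Complexes were assigned by gene name, which counts Ndufa4 and Ndufa4l2 with complex I. On that basis the nuclear medians in Sca-1+ cells were 0.52 for complex I (37 genes), 0.31 for complex II (4) and 0.56 for complex III (8). For complex IV (13) and complex V (17) they were 0.47 and 0.40. In Sca-1+ tdTneg against Sca-1neg tdTneg the medians were -0.54, -0.32, -0.50, -0.44 and -0.28 in the same order. For Sca-1+ tdT+ against Sca-1neg tdT+ they were 0.16, 0.07, 0.29, 0.30 and 0.17, and for tdT+ against tdTneg in Sca-1neg cells -0.12, -0.14, -0.14, -0.22 and -0.12. In each comparison all 5 complexes had medians of the same sign. These comparisons share groups pairwise: Sca-1+ tdTneg enters with one sign in Sca-1+ cells and with the other sign among tdTneg cells, so the 2 shifts are not independent. The median over all nuclear genes in the tdT+ comparison, 0.17, turned to -0.02 without Sca-1+ tdT+ replicate 2 and was 0.06 without Sca-1neg tdT+ replicate 2. It was 0.28 to 0.29 without Sca-1neg tdT+ replicate 1 or Sca-1+ tdT+ replicates 1 or 3.

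**Figure D4:**
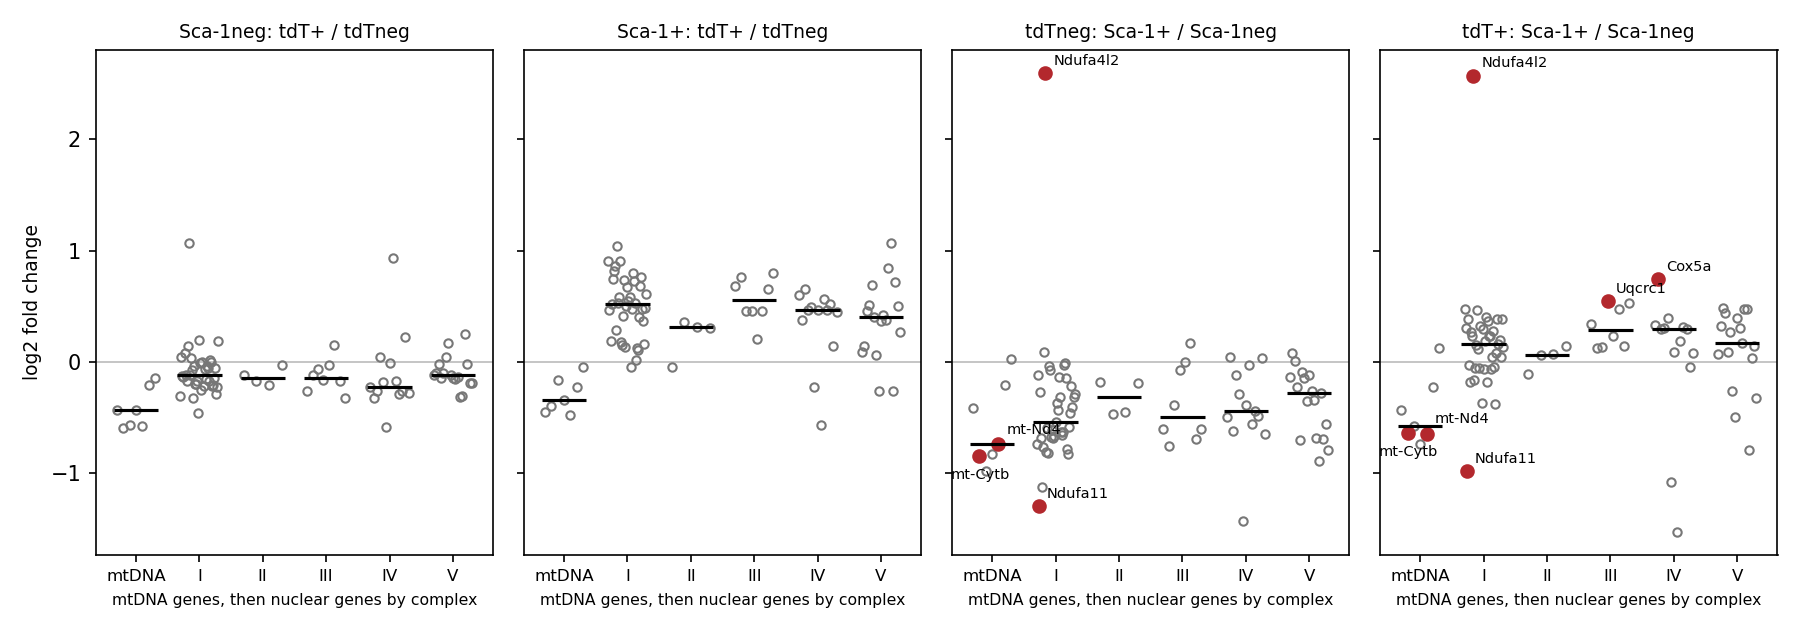
Log2 fold change of the 86 tested subunit genes in 4 comparisons, with mitochondrially encoded genes (mtDNA) first and nuclear genes by complex, assigned by gene name. Each circle is a gene, lines are medians, and filled red circles with names passed an adjusted p of 0.05. Red circles appear in the 2 right panels, 4 and 6 of them, and mtDNA medians lie below 0 in all 4 panels.

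The difference of the tdT effect between Sca-1 fractions was fitted as its own term, for which 0.483% of all genes passed. None of the 86 subunit genes passed, 21 had an unadjusted p under 0.05 beside 12.2% of all genes, and DESeq2 also called 0. All 21 were nuclear with a positive value, meaning a larger tdT+ minus tdTneg difference in Sca-1+ cells. The lowest p values belonged to 2 small membrane subunits of ATP synthase, Atp5j2 at 1.16 ± 0.39 (SE, adjusted p = 0.252) and Atp5k at 1.37 ± 0.47 (SE, adjusted p = 0.264). Over the 79 nuclear genes the median was 0.55, and 0.29 without Sca-1+ tdT+ replicate 2. The count of 21 fell to 4 without that library and to 5 without Sca-1+ tdTneg replicate 1. It was 8 to 13 without Sca-1neg tdT+ replicate 2, Sca-1neg tdTneg replicates 2 or 3, or Sca-1+ tdTneg replicate 2, and 32 without Sca-1neg tdTneg replicate 1. The mitochondrial median of 0.09 had no stable sign: it was -0.16 without Sca-1neg tdTneg replicate 3, -0.01 without Sca-1+ tdT+ replicate 3, -0.03 with DESeq2 size factors and 0.31 without Sca-1neg tdTneg replicate 2.

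Among nuclear genes, 2 passed between Sca-1 fractions of tdTneg cells and 4 of tdT+ cells by edgeR. DESeq2 called these and also Cox6b2 in both comparisons, Ndufa2 in the first (lower, adjusted p = 0.0243) and Uqcrfs1 in the second (higher, adjusted p = 0.0471). Log2 fold changes of most others were negative in the first (71 of 79, median -0.43) and positive in the second (59 of 79, median 0.17). An unadjusted p under 0.05 was reached by 23 nuclear genes in the first (29.1%, beside 20.5% of all genes), 22 of them lower. In the second it was reached by 11 (13.9%, beside 29.9% of all genes), 9 of them higher. With the mitochondrial genes the first count was 27 of 86, and 10 to 12 without Sca-1neg tdTneg replicate 3 or either Sca-1+ tdTneg library. The second was 16 of 86, and 9 without Sca-1+ tdT+ replicate 2. By CPM, 40 of 79 lay below without overlap in the first, as did 26.4% of all genes, and 2 lay above, as did 19.9%. In the second, 12 of 79 lay above, as did 15.4% of all genes.

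The largest change belonged to Ndufa4l2 (ENSMUSG00000040280, chr10:127514967-127517154), a relative of Ndufa4 that is known as a target of hypoxia-inducible factor 1 and lowers respiration. Its Sca-1neg levels were 78.2, 87.7 and 45.6 CPM with tdT+ and 53.0, 22.2 and 25.98 CPM with tdTneg. Its Sca-1+ levels were 579.5, 392 and 287 CPM with tdT+ and 269 and 139 CPM with tdTneg. Every Sca-1+ library lay above every Sca-1neg library, and every Sca-1+ tdT+ library above both Sca-1+ tdTneg libraries. It rose 6.05-fold in Sca-1+ tdTneg against Sca-1neg tdTneg (log2 fold change 2.60 ± 0.47 SE, adjusted p = 0.0149) and 5.95-fold in Sca-1+ tdT+ against Sca-1neg tdT+ (2.57 ± 0.44 SE, adjusted p = 0.00584). In Sca-1+ cells its log2 fold change between tdT+ and tdTneg was 1.04 ± 0.48 (SE, adjusted p = 0.37). The Sca-1 difference passed under all 21 alternatives in tdT+ cells and under 18 of 21 in tdTneg cells, being lost there without a low-count filter, without Sca-1neg tdTneg replicate 3 and without Sca-1+ tdTneg replicate 1. Leaving out the liver libraries kept both calls.

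Ndufa4l2 is also known from pericytes. The pericyte markers Rgs5 and Abcc9 were at most 0.36 and 0.67 CPM in the 5 Sca-1+ libraries, with Rgs5 at 0 in both Sca-1+ tdTneg libraries. From the same list, Tagln went the other way, at 2.53 and 3.31 CPM in Sca-1+ tdTneg and at most 1.29 CPM elsewhere. Acta2 was highest in Sca-1+ tdTneg replicate 2, at 18.05 CPM. The 10 pericyte and smooth muscle markers summed to between 317 and 489 CPM in Sca-1neg and between 146 and 316 CPM in Sca-1+, most of it Cspg4 and Notch3. Of these 10, 1 was called higher and 1 lower in each Sca-1 comparison: Notch3 ran from 91.1 to 127.8 CPM in Sca-1+ and from 22.9 to 53.8 CPM in Sca-1neg, and Cspg4 from 42.8 to 196.6 CPM in Sca-1+ and from 241.8 to 442 CPM in Sca-1neg. All 10 T cell markers rose in Sca-1+ tdT+ against Sca-1neg tdT+, and 8 of 10 in Sca-1+ tdTneg against Sca-1neg tdTneg. All 8 bulge markers fell in the first and 3 in the second. The 8 markers of differentiating epidermis summed to 7671 to 10728 CPM for Sca-1+ tdT+, 3521 and 7711 CPM for Sca-1+ tdTneg and 1071 to 4874 CPM for Sca-1neg. Of these 8, 1 rose (Krtdap) and 1 fell (Calml3) among tdT+ cells, and 2 rose and 1 fell among tdTneg cells. The part of these cell types in the Sca-1 differences was not tested.

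Ndufa4 itself, the partner isoform and now counted as a subunit of complex IV, showed no such pattern. It averaged 55.7 ± 18.4 CPM (SD, n = 3) in Sca-1neg tdT+, 50.5 ± 10.9 CPM (SD, n = 3) in Sca-1neg tdTneg, 65.6 ± 25.7 CPM (SD, n = 3) in Sca-1+ tdT+ and 53.8 ± 3.54 CPM (SD, n = 2) in Sca-1+ tdTneg. The groups overlapped in all 4 comparisons.

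Ndufa11 (ENSMUSG00000002379, chr17:56717767-56722141), a membrane-arm accessory subunit of complex I, went the other way. Sca-1neg cells had 53.9, 54.7 and 94.0 CPM with tdT+ and 63.0, 72.8 and 84.6 CPM with tdTneg. Sca-1+ cells had 29.7, 42.0 and 30.9 CPM with tdT+ and 31.9 and 28.1 CPM with tdTneg. All 5 Sca-1+ libraries lay below all 6 Sca-1neg libraries. It fell by 1.29 ± 0.27 on the log2 scale (SE, adjusted p = 0.021) in Sca-1+ tdTneg against Sca-1neg tdTneg and by 0.98 ± 0.24 (SE, adjusted p = 0.0207) in Sca-1+ tdT+ against Sca-1neg tdT+. The call passed under 18 of 21 alternatives in the first and 17 of 21 in the second. In the first it was lost without Sca-1neg tdTneg replicate 3 or without either Sca-1+ tdTneg library. In the second it was lost with only the groups compared in the fit, without Sca-1neg tdT+ replicate 3, and without Sca-1+ tdT+ replicates 1 or 3.

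Its start overlaps Vmac, a gene on the opposite strand (chr17:56713936-56718022). Across the 6 Sca-1neg libraries Vmac ranged from 22.1 to 47.1 CPM, and across the 5 Sca-1+ libraries from 11.9 to 20.3 CPM. Its log2 fold change was -1.14 (adjusted p = 0.0792) in the tdTneg comparison and -1.07 (adjusted p = 0.0391) in the tdT+ comparison. Of the 918 bases of the longest Ndufa11 transcript, 72 are shared with Vmac. Without strand, reads in the overlap cannot be assigned to either gene with certainty.

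Uqcrc1 and Cox5a rose in Sca-1+ tdT+ against Sca-1neg tdT+. Uqcrc1 (chr9:108936633-108949623), a core protein of complex III, had Sca-1neg tdT+ levels of 73.7, 73.6 and 69.4 CPM and Sca-1+ tdT+ levels of 97.5, 111 and 109 CPM. With log2 fold change 0.55 ± 0.14 (SE, adjusted p = 0.031), it was 1.46-fold higher without overlap. In Sca-1+ tdTneg it was 69.0 and 85.2 CPM, within the Sca-1neg tdTneg range of 68.6 to 93.6 CPM. Cox5a (chr9:57521274-57532426), a matrix-side subunit of complex IV, had Sca-1neg tdT+ levels of 31.8, 25.7 and 30.4 CPM and Sca-1+ tdT+ levels of 42.3, 65.7 and 39.2 CPM, with a log2 fold change of 0.75 ± 0.21 (SE, adjusted p = 0.0441). For 42.0% of its transcript Cox5a shares near-identical sequence with Gm26631 (chr9:57531287-57537629), a gene that overlaps it in position. Uqcrc1 passed under 12 of 21 alternatives and Cox5a under 5. Both were lost without Sca-1neg tdT+ replicate 2, whose tracer goes against its label, and without replicate 1 or 3 of that group.

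**Figure D5:**
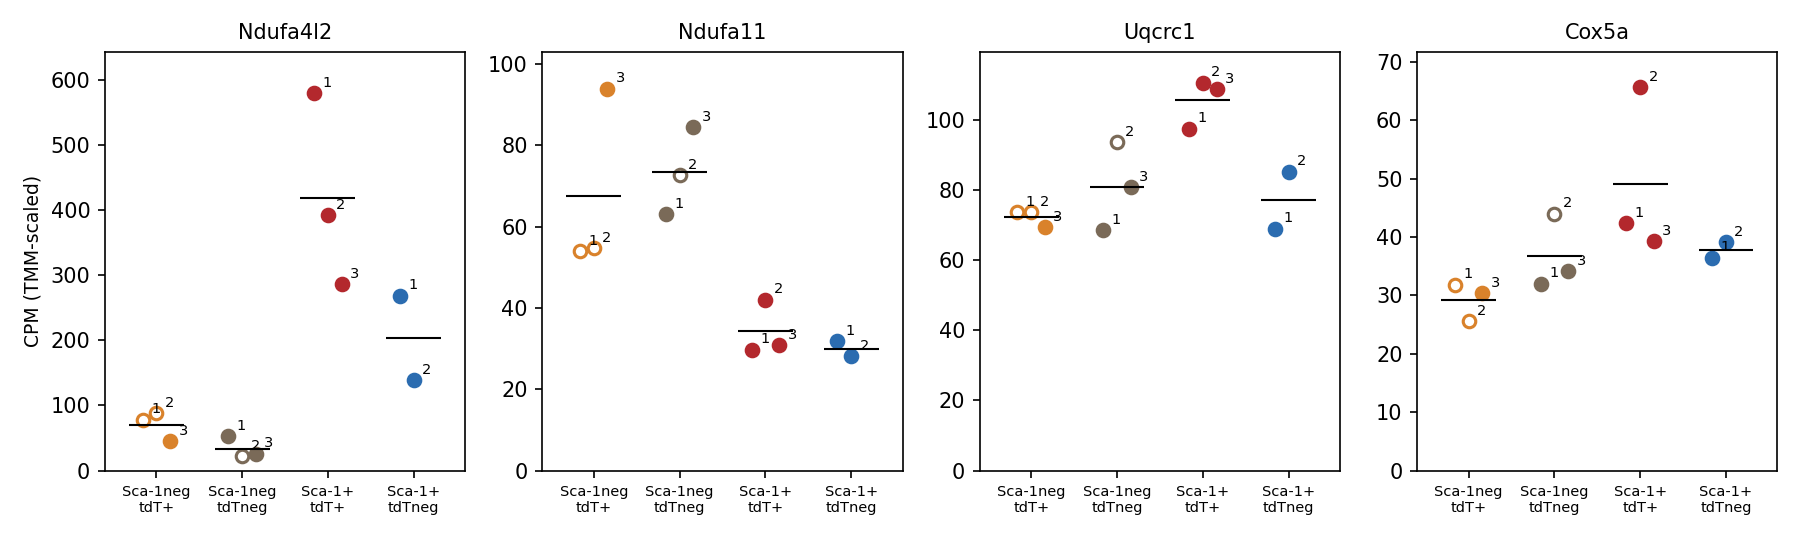
Level of the 4 nuclear subunit genes called in a comparison, in CPM (TMM-scaled), in each library by group. Points carry the replicate number, open points are the 3 libraries with liver transcripts, and lines are group means. Ndufa4l2 is higher and Ndufa11 lower in all 5 Sca-1+ libraries than in all 6 Sca-1neg libraries, and Uqcrc1 is highest in Sca-1+ tdT+.

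Promoter windows from RefSeq (GRCm38.p6, the 250 bases before the start) matched 66 of the 85 nuclear genes, with 71 windows. Known regulators of respiratory genes were searched by fixed letters on both strands. The palindromic site of NRF1, whose letters stand in capitals in the Ndufa11 sequence below, was in 5.63% of the subunit windows and 0.782% of all 32851 windows, which is 4 of 71 windows. The shares were 4.23% and 2.88% for the ETS site CCGGAAGT, 1.41% and 0.387% for the ERR site TCAAGGTCA, and 0 and 0.207% for the site of YY1. The short hypoxia response cores ACGTG or GCGTG were in 52.1% and 38.6%, and a core may share letters with a longer motif. These are matches of letters, not shown to be bound. Among the called genes, Ndufa11 holds the NRF1 letters, starting 60 bases before its start site and followed by a GCGTG core on the other strand, whereas Cox5a holds 3 cores and no longer motif and the Uqcrc1 window holds none of these letters. Ndufa4l2 was not among the matched genes. The last 70 bases of the Ndufa11 window (chr17:56717692-56717761, +), which lie outside the first exon of Vmac, and the whole Cox5a window (chr9:57520982-57521231, +) are printed 5′ to 3′ with the matches in capitals.
Ndufa11: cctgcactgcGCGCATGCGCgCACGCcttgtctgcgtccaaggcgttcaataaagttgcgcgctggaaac
Cox5a: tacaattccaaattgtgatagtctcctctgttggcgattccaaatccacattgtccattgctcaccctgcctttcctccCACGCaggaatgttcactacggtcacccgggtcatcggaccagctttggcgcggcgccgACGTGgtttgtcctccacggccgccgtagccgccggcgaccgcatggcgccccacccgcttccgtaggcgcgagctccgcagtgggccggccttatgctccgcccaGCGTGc

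Several subunits of the Cox4 to Cox8 series exist as isoform pairs, of which these cells used mainly the ubiquitous form. As a mean over all libraries the pair of Ndufa4 and Ndufa4l2 went the other way, at 41.0 and 164 CPM per kilobase of exon. That mean was carried by the Sca-1+ groups. Without division by length, Ndufa4l2 averaged 419 CPM in Sca-1+ tdT+ and 204 CPM in Sca-1+ tdTneg, against 65.6 and 53.8 CPM for Ndufa4. In Sca-1neg tdT+ they averaged 70.5 and 55.7 CPM, and in Sca-1neg tdTneg 33.7 and 50.5 CPM, where Ndufa4 was the higher. Cox4i1 stood at 137.8 CPM per kilobase of exon over all libraries, the scale used for all isoforms, and Cox4i2, the lung and hypoxia form, at 0.18. Cox6a1 stood at 157.9 and the heart and muscle form Cox6a2 at 0.01, Cox8a at 199 and the muscle form Cox8b and the testis form Cox8c at 0.01 each. Cox7a2 stood at 69.2 and the muscle form Cox7a1 at 0.74, while Cox7b stood at 50.8 and the testis form Cox7b2 is listed at 0 in every library. Cox7a2l, a further gene of the Cox7a series, stood at 55.7 CPM per kilobase. Among these minor forms, Cox4i2, Cox6a2, Cox7b2, Cox8b and Cox8c, had too few counts to be tested. The only other untested nuclear entry is a second identifier of Atp5o.

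The minor isoforms of complex IV with enough counts to be tested were Cox7a1, which did not pass in any comparison, and Cox6b2. Cox6b1 stood at 128.8 CPM per kilobase and its testis form Cox6b2 at 4.75. Cox6b2 had 6.53, 5.89 and 4.91 CPM in tdT+ and 9.09, 6.26 and 10.6 CPM in tdTneg libraries of Sca-1neg cells. It had 1.68, 2.90 and 3.66 CPM in tdT+ and 3.67 and 2.72 CPM in tdTneg libraries of Sca-1+ cells. All 5 Sca-1+ libraries lay below all 6 Sca-1neg libraries. The log2 fold change did not pass by edgeR in either comparison, at -1.43 (adjusted p = 0.0932) among tdTneg and -1.08 (adjusted p = 0.0972) among tdT+ cells, whereas DESeq2 called it lower in both (adjusted p = 0.018 and 0.0282). Its major form Cox6b1 had -0.28 and 0.40.

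In complex V, 3 genes encode the same mature c subunit of the rotor ring. Atp5g3 stood at 84.6 CPM per kilobase, Atp5g1 at 2.11 and Atp5g2 at 0.88, and none of the 3 passed a test. Highest per kilobase of exon within each complex, as a mean over the 11 libraries, were Ndufa4l2 (164 CPM) in complex I, Sdhd, a membrane anchor of succinate dehydrogenase (58.4), in complex II, Uqcrh, the hinge protein (83.7), in complex III, Cox8a (199) in complex IV and Atp5a1, the alpha subunit of ATP synthase (224), in complex V. By uncopied transcript in place of exon, Sdhb (67.6), Cox4i1 (349.6) and Atp5b (441), the beta subunit, led complexes II, IV and V. Complexes here follow the gene names, although Ndufa4, the partner of Ndufa4l2, is now counted in complex IV. By that assignment Ndufa4l2 led complex I through the Sca-1+ groups (383 CPM per kilobase of exon in Sca-1+ tdT+ and 186 in Sca-1+ tdTneg). In the Sca-1neg groups Ndufa2 was highest, at 90.2 with tdT+ and 97.7 with tdTneg. Uqcrh led complex III in the Sca-1neg groups, Uqcr10 in Sca-1+ tdT+ and Uqcrfs1 in Sca-1+ tdTneg. Without Ndufa4l2, the nuclear share of counts was 0.599%, 0.821% and 0.581% in Sca-1+ tdT+, still above Sca-1+ tdTneg (0.531% and 0.537%). The inhibitor of ATP synthase, Atpif1, which the symbol rule does not take in, rose in Sca-1+ tdT+ against Sca-1neg tdT+ from 42.1 ± 6.67 to 73.3 ± 16.5 CPM (SD, n = 3 each), with log2 fold change 0.80 ± 0.23 (SE, adjusted p = 0.041). In Sca-1+ cells it had 0.99 ± 0.26 between tdT+ and tdTneg (SE, adjusted p = 0.0792).

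Among the other genes of the pathway, glycolysis differed between Sca-1 fractions. Of 20 glycolytic genes, 9 rose and 0 fell in Sca-1+ tdT+ against Sca-1neg tdT+ (45.0%, beside 12.7% of all genes), with a median log2 fold change of 0.67. Slc2a1, the glucose transporter, rose from 202 ± 35.3 to 474 ± 46.1 CPM (SD, n = 3 each, adjusted p = 0.00128). Pfkl, a subunit of phosphofructokinase, rose from 75.6 ± 3.91 to 156 ± 32.6 CPM (SD, n = 3 each, adjusted p = 0.00302), and Aldoa, aldolase, from 366 ± 35.6 to 651 ± 76.2 CPM (SD, n = 3 each, adjusted p = 0.00406). The others were Eno1, Pgk1, Pkm, Gpi1, Pfkp and Slc16a3. In Sca-1+ tdTneg against Sca-1neg tdTneg, 2 of 20 rose: the lactate exporter Slc16a3, from 5.03 ± 2.19 (SD, n = 3) to 46.8 ± 2.26 CPM (SD, n = 2) with adjusted p = 0.0114, and Pfkl at a log2 fold change of 0.91 (adjusted p = 0.0187). In the tdT comparisons 0 of 20 passed by edgeR or DESeq2, and 3 (Sca-1neg) and 1 (Sca-1+) had an unadjusted p under 0.05. DESeq2 called 10 of 20 between Sca-1 fractions of tdTneg cells and 9 of tdT+ cells. Over all genes it called 2950 and 4652 there.

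Of 25 genes of the citric acid cycle and pyruvate dehydrogenase, 1 rose and 1 fell in each Sca-1 comparison. That is 8.0%, beside 5.74% of all genes among tdTneg and 12.7% among tdT+ cells. Citrate synthase, Cs, rose from 213 ± 7.20 to 371 ± 21.3 CPM in tdT+ cells (SD, n = 3 each, adjusted p = 0.00246) and by 0.53 on the log2 scale in tdTneg cells (adjusted p = 0.0487). Pdk2, a kinase that switches off pyruvate dehydrogenase, fell in tdT+ cells from 72.0 ± 22.9 to 15.5 ± 9.62 CPM (SD, n = 3 each, adjusted p = 0.0151), and Idh2, a mitochondrial isocitrate dehydrogenase, fell in tdTneg cells by 0.64 on the log2 scale (adjusted p = 0.0204). Among 23 carriers, channels and redox genes, 4 rose in Sca-1+ tdT+ against Sca-1neg tdT+ (17.4%, beside 5.94% of all genes). They were the phosphate carrier Slc25a3 (0.57), the outer membrane channels Vdac1 (0.49) and Vdac2 (0.47), and the ADP/ATP carrier Slc25a5 (0.75). None of the 23 passed in the other comparisons, where at most 4 had an unadjusted p under 0.05 and DESeq2 called at most 2.

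Of 15 regulators of nuclear respiratory genes, 3 were called among tdT+ cells (20.0%, beside 12.7% of all genes) and 1 among tdTneg cells (6.67%, beside 5.74%), with 6 and 4 at an unadjusted p under 0.05 and 6 and 3 called by DESeq2. Pprc1, a coactivator of the PGC-1 family, rose in both Sca-1 comparisons, by log2 fold changes of 0.59 (adjusted p = 0.0406) among tdTneg and 0.68 (adjusted p = 0.00759) among tdT+ cells. Esrra, an orphan nuclear receptor, rose by 0.55 among tdT+ cells (adjusted p = 0.0276). Esrrb, also called lower there (adjusted p = 0.0398), reached no more than 1.16 CPM (Sca-1neg tdT+ replicate 3) and was at 0 in all 3 Sca-1+ tdT+ libraries. Of 42 assembly factors, the copper chaperone gene Cox19 rose among tdT+ cells (0.63, adjusted p = 0.0412), which is 2.38% beside 12.7% of all genes. None passed elsewhere, where at most 7 had an unadjusted p under 0.05 and DESeq2 called at most 2. Of 27 genes of mitochondrial DNA and RNA machinery and 77 of mitochondrial ribosomal proteins, 0 passed in any comparison. At most 7 and 14 of them had an unadjusted p under 0.05, and DESeq2 called at most 2 of either list in a comparison. Among 20 electron carriers and feeder enzymes, Gpd2, which feeds electrons from glycerol 3-phosphate, rose among tdT+ cells (1.12, adjusted p = 0.0193). Coq8a, needed for coenzyme Q synthesis, and Sqor, which oxidises sulfide, fell there (-1.08 and -2.09, adjusted p = 0.0136 and 0.0413). Coq6 fell among tdTneg cells (-0.91, adjusted p = 0.0152). Sqor was highest in the Sca-1neg tdT+ libraries that held liver transcripts, at 34.8 CPM (replicate 1) and 18.8 CPM (replicate 2). Replicate 3 of that group, without them, had 5.84 CPM. Its levels for Sca-1+ tdT+ were 3.36, 5.79 and 4.85 CPM. The part of liver transcripts in the fall of Sqor was not tested.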

How the data were processed

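Raw counts per gene, 1 deposited file for each of 11 libraries, were used as the authors made them. The submitters' processing notes name STAR, featureCounts, FastQC, DESeq2 1.18.1, bcl2fastq 2.20.0.422 and the build mm10; libraries were made with TruSeq RNA v2, per the labels' protocols. Annotation release, strand setting and treatment of multiply mapped reads were not given in the sources used here. Symbols and positions came from GENCODE M21 (GRCm38, the same build).

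Counts were tested in R 4.3.3 with edgeR 4.0.16: filterByExpr by group (20307 genes), TMM, glmQLFit (robust) and glmQLFTest on all 11 libraries with 4 group means (7 residual degrees of freedom), and Benjamini-Hochberg adjustment over all genes at 0.05. The SE is the absolute log2 fold change over the square root of F. CPM are TMM-scaled; tracer CPM use total counts. Copies were found with blastn 2.17.0 (at least 98% identity over 50 bases). Tests were checked on simulated counts. No library duplicated another of its own group (chi-square per degree of freedom 45.5 or more between replicates). Pairs from different groups were not put through this check.

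Labels do not say that pools are separate beyond the 2 mice each, so p-values measure the spread between these libraries, and 2 to 3 libraries a group limit precision. Members and lists were chosen with earlier results of these data known. Named genes were all mitochondrial members; up to 6 nuclear members per direction with the lowest p past the threshold, or the 2 lowest p where none passed; the highest per kilobase in each complex; listed isoform genes with Atpif1; and up to 3 called genes per other list. Further called list genes, and non-members Vmac, Cd34 and Ly6a, were named after their values were seen. Alternatives were DESeq2, other scalings, other filters, the replicate block, age, fewer groups, no liver libraries, and leaving out each library.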

Additional observations from a re-analysis of the deposited data

Results flagged for a closer look

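The Cd34 transcript, whose product is part of the sort gate, differed in its tdT effect between Sca-1 fractions. Its log2 fold change for tdT+ against tdTneg was -3.68 in Sca-1+ cells and -0.36 in Sca-1neg cells, a difference of -3.315 by edgeR's interaction term (adjusted p = 0.00695). No subunit gene passed that test.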

How the results depend on the processing

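No alternative reversed the direction of a called subunit gene or of a ratio difference. For called genes, 124 values under alternatives kept their call and 86 did not. With DESeq2 1.42.0, subunit genes called numbered 1 for tdT in Sca-1neg cells and 3 for tdT in Sca-1+ cells (0 each in edgeR), 8 for Sca-1 in tdTneg cells (4 in edgeR) and 11 for Sca-1 in tdT+ cells (6 in edgeR), including all edgeR calls. In tdTneg cells 2 remained, Ndufa4l2 and Ndufa11, with DESeq2 size factors, library size alone, the replicate block, age as a factor, or a fit of only the groups compared. In tdT+ cells 2 were called with only the groups compared and 2 without the liver libraries. Leaving out 1 library gave 0 to 6 calls in tdTneg cells, with 0 without Sca-1neg tdTneg replicate 3 or Sca-1+ tdTneg replicate 1 and 1 without Sca-1+ tdTneg replicate 2. In tdT+ cells it gave 1 to 7, with 1 without Sca-1neg tdT+ replicate 3. Both tdT comparisons and their difference stayed at 0 calls in each such fit. Calls over all genes moved as far: in tdTneg cells from 1166 to 116 without Sca-1+ tdTneg replicate 1 and 2950 with DESeq2. DESeq2 called 400 and 1470 of all genes for tdT in Sca-1neg and Sca-1+ cells, and 4652 for Sca-1 in tdT+ cells. By edgeR these numbers were 13, 556 and 2572.

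Leaving out 1 library, the log2 mitochondrial to nuclear ratio difference ran from -0.85 to -0.59 for tdT in Sca-1+ cells and from -0.90 to -0.64 for Sca-1 in tdT+ cells. Replicate numbers were not taken as pairing the libraries, though replicate 1 shares an age across groups: 7 of 15 same-number pairs had deviations correlated above 0.1 (-0.415 to 0.589), and 7 of the 11 libraries correlated best with their own number. The replicate block gave 0, 0, 2, 6 and 0 calls in the 5 comparisons. Under it mt-Nd4 and mt-Cytb did not pass in tdTneg cells (adjusted p = 0.0609 each by edgeR), nor Cox5a in tdT+ cells (0.0531). Where an arm is left with 1 library, edgeR assumes that it varies like the other groups. The 6 mitochondrial genes listed at 0 cannot be judged at any depth of these files.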

Other observations

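The mitochondrial ribosomal RNAs mt-Rnr1 and mt-Rnr2, cut from the same long transcript as most mitochondrial mRNAs, followed another order over the libraries. Among Sca-1neg cells they made up 2.56%, 1.62% and 0.757% of gene counts with tdT+ and 0.296%, 1.62% and 0.380% with tdTneg. Among Sca-1+ cells they made up 0.165%, 0.984% and 0.512% with tdT+ and 0.376% and 0.644% with tdTneg. The 3 highest shares were those of the 3 libraries with liver transcripts, whereas the 7 mRNAs were highest in Sca-1neg tdTneg replicates 3 and 1. Neither rRNA passed in any comparison by edgeR or DESeq2, and 0 had an unadjusted p under 0.05.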
